A study of Homo sapiens with 6 samples.

Results

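Expression of 10 genes of the epithelial to mesenchymal transition (EMT) was compared between large physaliferous and small non-vacuolated chordoma cells. The genes were the adhesion and surface genes *CDH1*, *EPCAM*, *MUC1*, *CD24* and *CDH2* and the transcription factors *SNAI1*, *SNAI2*, *ZEB1*, *ZEB2* and *TWIST1*. A probe set counted as a gene's own where the platform annotation gave exactly that gene symbol and no other, and the probe set with the highest mean over the 6 arrays was kept. All 10 genes were found among the 18404 genes that the array covers in this way, and all 10 were tested without a filter on level.

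MUG-Chor1 is an established cell line that was derived from a chordoma of the sacrum and coccyx; chordomas are bone tumors of the spine and skull base that resemble the embryonic notochord. Its cultures hold large cells filled with vacuoles, called physaliferous, beside small cells without vacuoles. Each pool held 20 cells of one phenotype, large physaliferous or small. The methods describe picking by micromanipulation after trypsin treatment, whereas the sample descriptions mention trypsin and cytocentrifugation onto slides; both groups came from the same untreated line in the same medium. The cDNA of each pool was amplified and hybridized to 1 Affymetrix Human Gene 1.0 ST array, giving 3 large pools (numbered 2, 3 and 4) and 3 small pools (numbered 5, 6 and 7).

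In epithelia, E-cadherin (*CDH1*) and EpCAM (*EPCAM*) hold neighbouring cells together, while many mesenchymal cells carry N-cadherin (*CDH2*) instead. The factors of the SNAI, ZEB and TWIST families bind E-box sequences and repress *CDH1* and other epithelial genes, and microRNAs of the miR-200 family in turn repress *ZEB1* and *ZEB2*. Notochord and chordoma cells combine keratins and other epithelial proteins with mesenchymal ones, so genes of both sides are of interest in them.

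The mature microRNAs of the miR-200 family are shown because they are the best known regulators of *ZEB1* and *ZEB2* and because probe sets for their gene loci were on the array. They are taken from RefSeq (GRCh38.p14), 5′ to 3′, with the seed (bases 2 to 8) in capitals.
hsa-miR-200b-3p: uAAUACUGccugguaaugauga
hsa-miR-200c-3p: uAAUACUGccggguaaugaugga
hsa-miR-429: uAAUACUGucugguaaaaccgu
hsa-miR-200a-3p: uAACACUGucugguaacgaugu
hsa-miR-141-3p: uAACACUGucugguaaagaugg
The first 3 share the seed AAUACUG and the other two share AACACUG. They lie at chr1:1167160-1167181 (miR-200b), chr12:6963742-6963764 (miR-200c), chr1:1169055-1169076 (miR-429), chr1:1167916-1167937 (miR-200a) and chr12:6964155-6964176 (miR-141), all on the plus strand.

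Promoter windows of a target and of a regulator are shown for the E-box that the SNAI and ZEB factors recognise. The letters searched were CACCTG and their reverse complement CAGGTG, an E-box of the general form CANNTG, in RefSeq windows (GRCh38.p14) of 250 bases before to 50 bases after a gene's start. Windows were given for 5 of the 10 genes (*MUC1*, *ZEB1*, *ZEB2*, *CD24* and *CDH2*). Matches are in capitals.
MUC1: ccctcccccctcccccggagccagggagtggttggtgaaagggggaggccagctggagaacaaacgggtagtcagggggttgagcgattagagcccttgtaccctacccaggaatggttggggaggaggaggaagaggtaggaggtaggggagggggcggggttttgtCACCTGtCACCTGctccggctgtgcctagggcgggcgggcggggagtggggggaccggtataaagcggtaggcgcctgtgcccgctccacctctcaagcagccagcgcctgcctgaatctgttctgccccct
ZEB1: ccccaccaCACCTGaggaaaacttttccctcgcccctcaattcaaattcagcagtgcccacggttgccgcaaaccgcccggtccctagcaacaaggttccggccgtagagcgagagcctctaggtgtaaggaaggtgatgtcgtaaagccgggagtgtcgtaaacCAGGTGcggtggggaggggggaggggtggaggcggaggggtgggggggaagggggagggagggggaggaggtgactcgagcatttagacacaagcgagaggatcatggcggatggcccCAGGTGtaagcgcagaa
The *MUC1* window shown (chr1:155192866-155193165, minus strand) held 2 matches, whose first bases lay 82 and 75 bases before the start. *MUC1* had 2 windows, each with a match, and 2 matches were the most in either. The *ZEB1* window shown (chr10:31318966-31319265, plus strand) held 3 matches, with first bases 242 and 85 bases before and 34 bases after the start. It was chosen as the one with the most matches among 7 windows of *ZEB1*, of which 2 held a match. *CD24* had a match in 1 of 3 windows, *CDH2* in 0 of 2 and *ZEB2* in 0 of 1. Over all 35116 windows 20.6% held at least 1 match, 3.49% at least 2 and 0.64% at least 3. A match describes the letters only, and binding was not measured here.

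Values are the deposited log2 expression values, in which a difference of 1 is a factor of 2. A value above log2(100), that is 6.64, was counted as above the expression floor. Fold changes are large minus small, from the moderated test of limma over all 18404 genes with Benjamini-Hochberg adjustment. The pools may or may not stem from separate cultures, which no source states, and a p-value here reflects the spread among the pools alone. In RNA from pools, fewer cells that express a gene and less RNA of it per cell cannot be told apart. The array medians were 6.64 to 6.68 in the large pools and 6.73 to 6.76 in the small pools, and correlations between arrays were 0.914 to 0.929 among large pools, 0.896 to 0.899 among small pools and 0.899 to 0.916 between them. All 8 chordoma markers listed, among them *TBXT* (brachyury) and *KRT19*, were above the floor in all 6 arrays. Of 8 fibroblast markers 5 were above it in at least 2 arrays, of 5 endothelial markers 1, of 5 leukocyte markers 2, of 4 keratinocyte markers 3 and of 2 erythroid markers 0.

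None of the 10 genes passed the test at an adjusted p under 0.05, and of all genes 0% did. *CD24*, *MUC1*, *CDH2*, *SNAI2*, *ZEB1* and *TWIST1* were above the floor in all 6 pools, whereas *CDH1* and *SNAI1* were above it in 0 of 6. *EPCAM* and *ZEB2* were above it in 2 of 6 pools each. At an unadjusted p under 0.05 by limma were 2 of the 10 genes, *CDH1* and *SNAI1*, both lower in large pools, where 10.5% of all genes were lower and 4.33% higher at that limit. In the same 2 genes every large pool lay below every small pool, which was so in 21.6% of all genes, and in 0 of the 10 every large pool lay above, which was so in 5.48% of all genes.

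**Figure D1:**
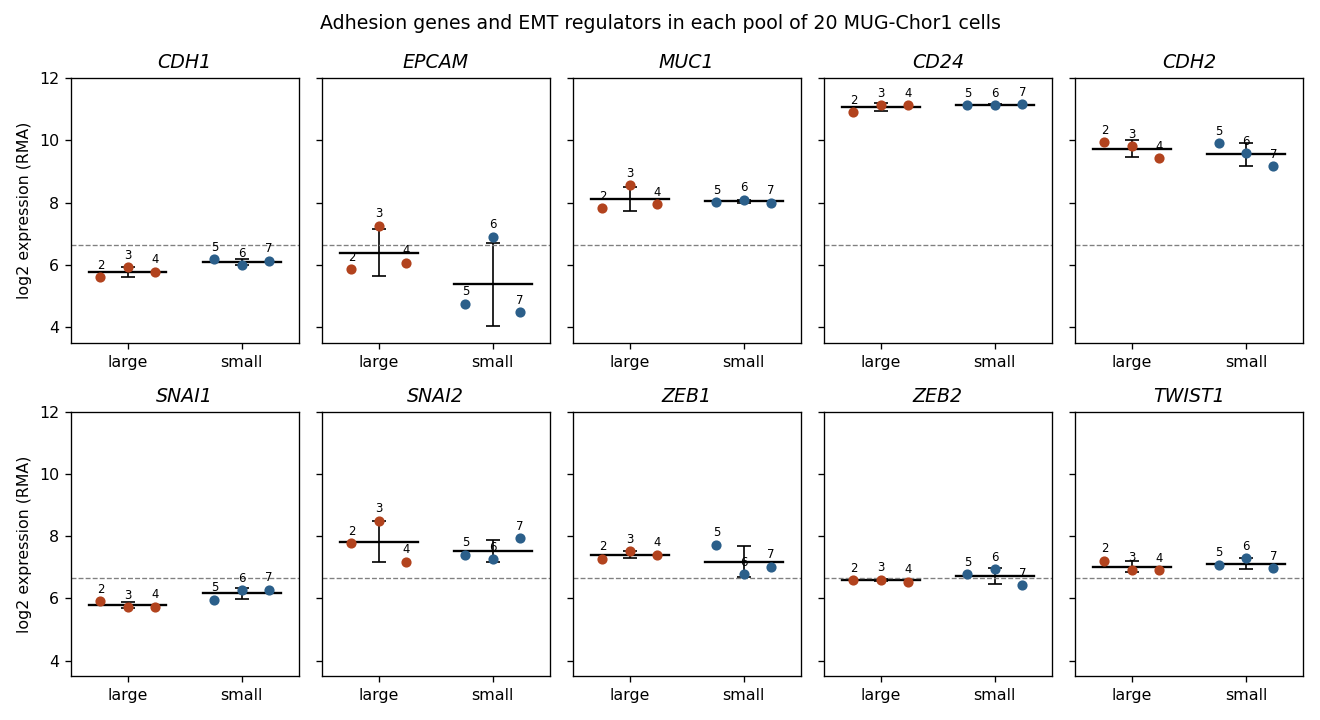
Log2 expression of the 10 genes in each pool of 20 cells, with large pools on the left and small pools on the right of each panel; points are pools with their numbers, bars the mean and whiskers the SD, and the floor of 6.64 is dashed. Large and small pools overlap in 8 of the 10 genes, and *CDH1* and *SNAI1* lie below the floor in all 6 pools.

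*CDH1* (chr16:68737292-68835537, GRCh38.p14) encodes E-cadherin, the main cadherin of epithelial adherens junctions. Its log2 expression was 5.62, 5.93 and 5.78 in large pools 2, 3 and 4, and 6.19, 6.01 and 6.13 in small pools 5, 6 and 7. All 3 large pools were below all 3 small pools, yet all 6 values were under the expression floor. The mean was 5.78 ± 0.16 in large pools and 6.11 ± 0.10 in small pools (SD, n = 3 each), a log2 fold change of -0.33 (95% confidence interval -0.63 to -0.04). The adjusted p from limma was 0.324, and the exact two-sided permutation test gave 0.1, the smallest p that 3 pools against 3 allow. Among the 3680 genes in the lowest of 5 classes by mean level, which holds *CDH1*, the large pools were all below the small pools in 17.3%.

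*EPCAM* (chr2:47369311-47387020) encodes a homophilic adhesion molecule of epithelial cells and had 2 probe sets. The kept one, with the higher mean, had values of 5.86, 7.26 and 6.08 in large pools and 4.76, 6.91 and 4.48 in small pools. Large pool 3 and small pool 6 were high and above the floor, the other four pools were below it, and the groups overlapped. The log2 fold change was 1.01 (standard error 0.72, interval -0.73 to 2.76, adjusted p from limma 0.470), so that its interval reached from 0.601-fold to 6.79-fold. It was 1.78 without small pool 6, 0.58 without large pool 3 and 0.56 without small pool 7. The other probe set had 4.99, 5.02 and 5.01 in large pools and 5.24, 5.19 and 5.41 in small pools. There all large pools were below all small pools and all 6 below the floor, with a log2 fold change of -0.27 (interval -0.53 to -0.02) and an adjusted p from limma of 0.474 over all probe sets. This reading of the second probe set was chosen after its values were seen. In the numerical order of the probe set identifiers, the nearest named neighbours of the kept probe set were *NEIL3* and *TENM3*, both on chromosome 4, while those of the other were *TTC7A* and *MSH6*, both on chromosome 2 as *EPCAM* is. Which transcript the kept probe set measured was not tested, and the direction for *EPCAM* differed between its probe sets.

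*MUC1* (chr1:155185824-155192915) encodes a transmembrane mucin, the epithelial membrane antigen of pathology. It was measured at 7.83, 8.57 and 7.95 in large pools and at 8.02, 8.10 and 8.005 in small pools. All 6 pools were above the floor, and large pool 3 stood above the other five, which lay close together. The mean was 8.12 ± 0.40 in large pools and 8.04 ± 0.05 in small pools (SD, n = 3 each), and the log2 fold change of 0.08 had an interval of -0.42 to 0.58 (adjusted p from limma 0.854). On a linear scale that interval is 0.747-fold to 1.49-fold. Without large pool 3 the log2 fold change was -0.15.

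*CD24* (chr6:106969831-106976855) encodes a small, heavily glycosylated surface protein with a lipid anchor. The values were 10.91, 11.13 and 11.14 in large pools and 11.14, 11.13 and 11.16 in small pools. Large pool 2 was the lowest, and the other five pools lay within the spread of the small pools or next to it. The log2 fold change was -0.08 (interval -0.33 to 0.17, adjusted p from limma 0.675), and 0.00 after each array was centred on its median. Without large pool 2 it was -0.01. In the numerical order of the probe set identifiers, the nearest named neighbours of this probe set were not on chromosome 6, where *CD24* lies. RefSeq lists 5 pseudogenes of *CD24*, and which of these copies, if any, the probe set also detects was not tested.

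*CDH2* (chr18:27932879-28177130) encodes N-cadherin, the cadherin of mesenchymal and neural cells. It had 9.96, 9.82 and 9.43 in large pools and 9.90, 9.59 and 9.17 in small pools. Both groups were well above the floor and overlapped over most of their range, with the lowest value in small pool 7. The mean was 9.74 ± 0.27 in large pools and 9.55 ± 0.37 in small pools (SD, n = 3 each), with a difference of 0.18 on the log2 scale (interval -0.37 to 0.73, adjusted p from limma 0.673). Without small pool 7 it was -0.01. *CDH1* and *CDH2* thus had opposite signs as deposited, with the *CDH1* signal under the floor and the sign for *CDH2* dependent on 1 pool.

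*SNAI1* (chr20:49982980-49988886), the zinc finger factor Snail, represses *CDH1* through its E-boxes. It had 5.91, 5.72 and 5.74 in large pools and 5.96, 6.26 and 6.28 in small pools. All large pools were below all small pools, by a narrow margin between large pool 2 and small pool 5, and all 6 values were under the floor. The log2 fold change was -0.38 (standard error 0.13, interval -0.69 to -0.07), with an adjusted p from limma of 0.323 and an exact two-sided permutation p of 0.1. In the level class of *SNAI1*, the second lowest, all large pools were below all small pools in 27.9% of 3681 genes, and 14.8% were lower in large pools at an unadjusted p under 0.05. In the class of *CDH1* that share was 7.53%.

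*SNAI2* (chr8:48917598-48921429), the related factor Slug, is a marker of the neural crest and of many mesenchymal cells. Its values were 7.78, 8.50 and 7.18 in large pools and 7.40, 7.26 and 7.94 in small pools. The groups overlapped fully, and both the highest and the lowest value came from large pools. The mean was 7.82 ± 0.66 in large pools and 7.53 ± 0.36 in small pools (SD, n = 3 each), with a log2 fold change of 0.29 (interval -0.59 to 1.16, adjusted p from limma 0.671). Without large pool 3 it was -0.05.

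*ZEB1* (chr10:31318417-31529804) encodes a zinc finger and homeodomain repressor of *CDH1*. It had 7.28, 7.51 and 7.40 in large pools and 7.73, 6.78 and 7.02 in small pools. The 3 large pools lay close together within the wider range of the small pools. The log2 fold change was 0.22 (standard error 0.25, interval -0.39 to 0.83, adjusted p from limma 0.639). It depended on single small pools, being 0.50 without small pool 5 and 0.02 without small pool 6.

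*ZEB2* (chr2:144384081-144520119), its paralog, had 2 probe sets. The kept one had 6.59, 6.60 and 6.54 in large pools and 6.77, 6.94 and 6.42 in small pools. All large pools were just under the floor, and 2 of 3 small pools were just above it, with small pool 7 the lowest of all. The mean was 6.58 ± 0.03 in large pools and 6.71 ± 0.26 in small pools (SD, n = 3 each), and the log2 fold change had an interval of -0.50 to 0.23 (adjusted p from limma 0.630). It was -0.28 without small pool 7 and -0.02 without small pool 6. The dimmer probe set had 4.06, 4.52 and 3.78 in large pools and 3.85, 4.08 and 3.90 in small pools, all under the floor, with a log2 fold change of 0.18. When both probe sets were averaged the log2 fold change was 0.02.

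*TWIST1* (chr7:19113047-19117636) encodes a basic helix-loop-helix factor of mesoderm that binds E-boxes as a dimer. It was measured at 7.21, 6.92 and 6.91 in large pools and at 7.09, 7.30 and 6.97 in small pools. All 6 pools were above the floor and the groups overlapped. The mean was 7.02 ± 0.17 in large pools and 7.12 ± 0.17 in small pools (SD, n = 3 each), and the log2 fold change was -0.10 (interval -0.44 to 0.23, adjusted p from limma 0.692). It was -0.20 without large pool 2 and -0.01 without small pool 6.

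**Figure D2:**
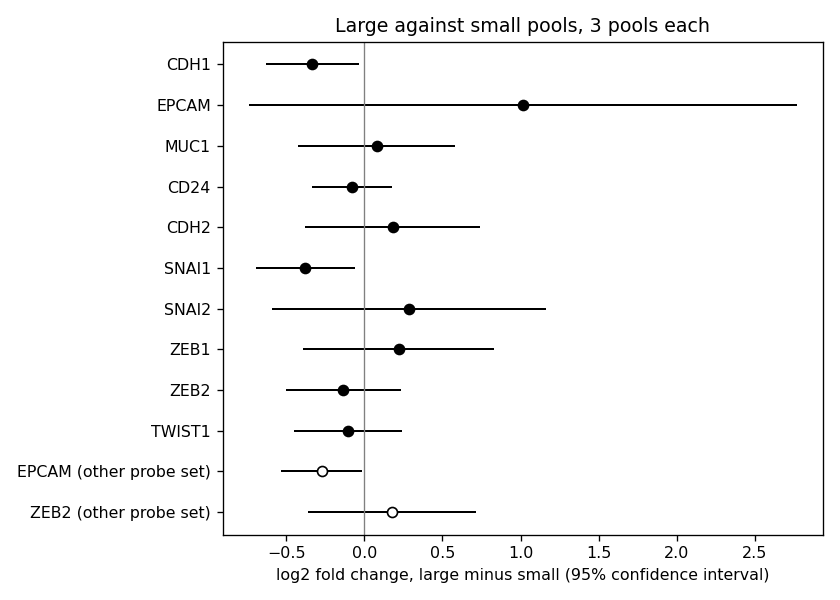
Log2 fold change, large minus small, with its 95% confidence interval from limma for the kept probe set of each gene (filled points) and for the other probe sets of *EPCAM* and *ZEB2* (open points, fitted over all probe sets). The intervals of *CDH1*, *SNAI1* and the other *EPCAM* probe set lie below 0 before adjustment for the number of genes; the kept *EPCAM* probe set has the widest interval, -0.73 to 2.76.

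The precision differed between the genes. The pooled SD over pools was 1.08 for *EPCAM*, 0.53 for *SNAI2*, 0.36 for *ZEB1* and 0.32 for *CDH2*, against 0.18 as the median of all genes. It was 0.09 for *CD24*, 0.13 for *CDH1* and 0.15 for *SNAI1*. In 6 of the 10 genes it was above the median of genes of the same level class and in 4 it was not. Large pool 3 was the highest large pool in 6 of the 10 genes (*CDH1*, *EPCAM*, *MUC1*, *SNAI2*, *ZEB1* and *ZEB2*), where it was the highest in 29.8% of all genes. Among small pools, pool 6 was the highest in 4 of the 10 genes and pools 5 and 7 in 3 each. Over all genes small pool 5 was the highest in 41.8%, pool 6 in 30.7% and pool 7 in 27.5%.

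The differences of the dim genes were set beside those of all genes of like level. Over all genes the median log2 fold change was -0.11, and 66.4% of genes were below 0, against 5 of the 10 genes studied. The medians of the 5 level classes were -0.09, -0.15, -0.17, -0.13 and 0.08 in order of rising level. *CDH1* at -0.33 and *SNAI1* at -0.38 were further below 0 than the medians of their classes, -0.09 and -0.15. Both are singled out for being lower at an unadjusted p under 0.05 by limma, so a place below the median follows from that choice. In their classes 7.53% and 14.8% of genes were lower at that limit. After each array was centred on its median, 0 of the 10 genes had an unadjusted p under 0.05 by limma, and among all genes at that limit 1207 had higher and 718 lower values in large pools, against 797 and 1934 as deposited. With that centring the log2 fold change was -0.25 for *CDH1* and -0.30 for *SNAI1*. The part of the array-wide shift in the values of these genes was not tested beyond this centring.

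**Figure D3:**
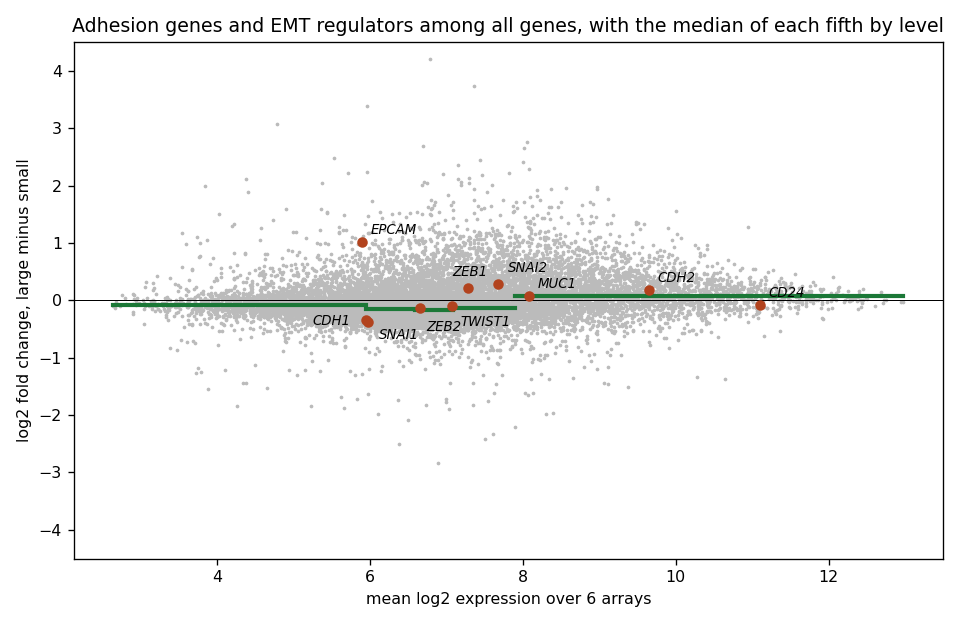
Log2 fold change, large minus small, against the mean log2 expression over 6 arrays for 18404 genes (grey) and the 10 genes studied (red); green lines are the medians of 5 classes of genes by level, from -0.17 to 0.08. *CDH1* and *SNAI1* lie at the border of the 2 lowest classes, below their medians of -0.09 and -0.15, and *CD24* lies among the brightest genes.

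The genes whose values over the 6 pools ran closest to those of *SNAI1*, the gene with the smallest p, were *ENHO*, *TNS3*, *CHPF2*, *TOP1MT* and *SPATA3*. Likeness was the root mean square difference of values centred on each gene's mean, over 6 arrays and 11694 genes above the floor in at least 2 arrays. It was 0.036 for *ENHO*, 0.051 for *TNS3*, 0.052 for *CHPF2* and 0.056 for *TOP1MT*. For *SPATA3* it was 0.058.

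A further 177 genes of adhesion and EMT in 10 lists were read in the same fit, and 0 of them passed at an adjusted p under 0.05 by limma. With an unadjusted p under 0.05, 11 (6.21%) had higher and 16 (9.04%) had lower values in large pools, against 4.33% and 10.5% of all genes. Of the 177 genes 121 (68.4%) were below 0, against 66.4% of all genes. In 14 (7.91%) every large pool lay above every small pool, against 5.48% of all genes. In 41 (23.2%) every large pool lay below, against 21.6% of all genes. Genes named from the lists were mostly picked by the smallest p, a choice that favours groups without overlap. The lists are described by counts and medians only.

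Of 18 genes of the adherens junction 6 were above and 12 below 0, with a median log2 fold change of -0.13. *ARHGAP10*, which encodes a partner of alpha-catenin, had 7.56, 7.42 and 7.78 in large pools and 5.89, 7.18 and 6.73 in small pools. These groups did not overlap, and the log2 fold change was 0.99 (interval 0.19 to 1.78, adjusted p from limma 0.323). Without small pool 5, the lowest, it was 0.63. *ARVCF*, a catenin of the p120 family, had -0.39 and the zyxin gene *ZYX* -0.23. Of 23 genes of tight junctions and desmosomes 7 were above and 16 below 0, with a median of -0.11. *DSG2*, the desmosomal cadherin of simple epithelia, had 10.92, 10.84 and 10.48 in large pools and 10.26, 9.09 and 10.14 in small pools. Again all large pools were above all small pools, with a log2 fold change of 0.92 (interval 0.11 to 1.72, adjusted p from limma 0.326). Small pool 6 stood below the other two small pools, and without it the log2 fold change was 0.55. The polarity gene *CRB3* had -0.35 and *EVPL*, which encodes envoplakin, -0.26.

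Among 17 other cadherins 4 were above the floor in at least 2 pools, and the median was -0.15 with 3 above and 14 below 0. *CDH10*, a classical cadherin known from the brain, had 9.81, 9.64 and 9.12 in large pools and 8.84, 8.59 and 9.29 in small pools. Small pool 7 lay above large pool 4, so the groups overlapped, and the log2 fold change was 0.61 (interval 0.01 to 1.22, adjusted p from limma 0.336). *CDH15* and *CDH22* had -0.44 and -0.30. Of 18 surface glycoproteins and proteases of membrane cleavage 7 were above and 11 below 0, with a median of -0.10. *PSENEN*, a subunit of the gamma-secretase that cleaves E-cadherin and CD44, had 8.35, 8.13 and 8.01 in large pools and 7.68, 7.68 and 7.66 in small pools. All large pools were above the narrow range of the small pools, and the log2 fold change was 0.49 (interval 0.20 to 0.77, adjusted p from limma 0.323). *MUC4* and *SIGLEC10*, a receptor for CD24 on leukocytes, had -0.25 and -0.24.

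Of 18 regulators of epithelial identity 5 were above and 13 below 0, with a median of -0.12. *LSR*, a protein of tricellular junctions, had -0.34, the protease inhibitor *SPINT2* -0.39 and the splicing factor *ESRP2* -0.31. Of 16 other transcription factors of EMT 4 were above and 12 below 0, with a median of -0.17. *SNAI3* had -0.34 and *SOX4* -0.37, both without overlap and each with an adjusted p from limma of 0.336. *TCF4* had -0.69 with overlapping groups (adjusted p from limma 0.390), and it was -0.38 without large pool 3 and -1.004 without large pool 4. Of 17 partners of the repressors 8 were above and 9 below 0, with a median of -0.01, or 0.07 after each array was centred on its median and -0.17 without small pool 5. The histone demethylase *KDM1A*, which Snail recruits, had -0.53 (-0.36 without small pool 7) and the LIM protein *WTIP* -0.30. *RCOR1*, which encodes a cofactor of KDM1A, had 7.39, 8.85 and 7.45 in large pools and 6.56, 7.10 and 7.57 in small pools. The groups overlapped and large pool 3 stood apart, with a log2 fold change of 0.82 over all pools (adjusted p from limma 0.392) and 0.35 without large pool 3.

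The list with the highest median was that of enzymes for the turnover of SNAI and TWIST proteins, at 0.30, with 9 of 13 genes above 0; without small pool 5 the median was 0.18. *GSK3B*, the kinase that marks Snail for degradation, had 9.32, 9.10 and 9.67 in large pools and 8.95, 8.26 and 8.42 in small pools. All large pools were above all small pools, with a log2 fold change of 0.82 (interval 0.26 to 1.38, adjusted p from limma 0.323). *BTRC*, the F-box protein that reads this mark, had 0.43, and *FBXL14*, another F-box protein for Snail, had -0.34. With an unadjusted p under 0.05 by limma, 4 of the 13 genes had higher values in large pools, against 4.33% of all genes. These were *GSK3B*, *BTRC*, *FBXL5* and *FBXO45*. At the same limit 1 of the 13 had lower values (*FBXL14*), against 10.5% of all genes. *FBXL5* and *FBXO45* are named after their values were seen. *FBXO45* was above the floor in 0 of 6 pools. The list was not set beside genes of like level. In the brightest level class, which holds *GSK3B* and *FBXL5*, the median log2 fold change was 0.08, against -0.11 over all genes.

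Of 30 mesenchymal genes 7 were above and 23 below 0, with a median of -0.13. *FBN1*, which encodes the microfibril protein fibrillin, had 9.56, 9.77 and 9.61 in large pools and 8.70, 8.40 and 9.08 in small pools. All large pools were above all small pools, and the log2 fold change was 0.92 (interval 0.47 to 1.37, adjusted p from limma 0.323). The tropomyosin gene *TPM2* had 0.31. *SPARC*, a matrix glycoprotein, had 9.06, 9.00 and 9.46 in large pools and 9.92, 9.34 and 9.83 in small pools, with overlap between large pool 4 and small pool 6; the log2 fold change was -0.53, with an interval of -1.02 to -0.03 (adjusted p from limma 0.332). The fibroblast markers, some of which are also in this list, had a median of -0.16, against -0.11 over all genes. Of these markers 8 of 8 were below 0, where 66.4% of all genes were, and 5 of the 8 were above the floor in at least 2 pools. Their part in the mesenchymal values was not tested.

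**Figure D4:**
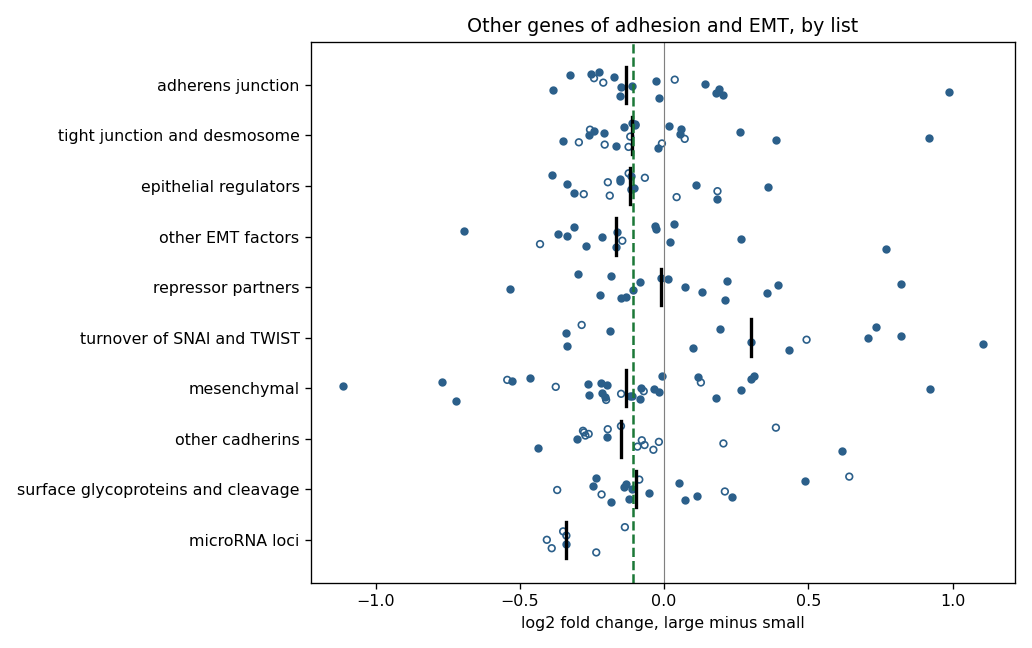
Log2 fold change, large minus small, of 177 genes in 10 lists; filled points are genes above the expression floor in at least 2 of 6 arrays, open points those that are not, black bars the list medians and the dashed green line the median of all genes, -0.11. List medians run from -0.34 for the microRNA loci to 0.30 for the turnover of SNAI and TWIST proteins.

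The array also carried probe sets for 7 microRNA loci, which report transcripts of the locus and not the mature microRNA. All 7 were below 0, where 66.4% of all genes were, and their median was -0.34 against -0.11 over all genes. Of the 7, 1 was above the floor in at least 2 pools. With an unadjusted p under 0.05 by limma, 3 of the 7 were lower in large pools, against 10.5% of all genes. In 4 of the 7 every large pool lay below every small pool, which was so in 21.6% of all genes. *MIR200B* had 6.38, 6.40 and 6.39 in large pools and 6.70, 6.64 and 6.85 in small pools. All large pools were below all small pools, with a log2 fold change of -0.34 (interval -0.58 to -0.10, adjusted p from limma 0.323). *MIR200C* had 6.50, 6.32 and 6.50 in large pools and 7.29, 6.63 and 6.62 in small pools, again without overlap. For *MIR429*, the third with the seed AAUACUG, the log2 fold change was -0.14 and the groups overlapped. With the seed AACACUG, *MIR200A* had -0.39 and *MIR141* -0.24, both with overlapping groups. Loci with either seed had the same sign, and 0 of the 7 passed the test. *MIR200B*, *MIR200A* and *MIR429* lie close together on chromosome 1, and *MIR200C* and *MIR141* on chromosome 12. Each of these places holds both seeds, so the seeds cannot be compared as separate loci. Whether neighbouring probe sets read the same transcript was not tested, so the counts over the 7 loci may not be of separate readings. After each array was centred on its median, the median of the 7 loci was -0.26 and *MIR200B* had -0.26. The part of the array-wide shift in these values was not tested beyond this centring.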

How the data were processed

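The values deposited by the authors are log2 expression from robust multi-array averaging, 1 value per probe set (affy package in R, per the methods); Affymetrix Expression Console is named in the submitters' processing notes, and the chip definition is not given there or in the methods. Of 32321 probe sets 19158 had 1 gene symbol in the platform annotation, 1388 several and 11775 none; 30 of those with 1 symbol had no match in RefSeq. The probe set with the highest mean was kept for each gene. Large and small pools, grouped by the labels, were compared with limma 3.58.1 in R 4.3.3 with no covariate and Benjamini-Hochberg adjustment over all 18404 genes, called at an adjusted p under 0.05. The methods filter genes without stated limits and pick pools in quadruplicate, while 3 arrays per group were analyzed here. Arrays give no depth; the number of pools limits the precision. Two-sided exact permutation tests were run per gene. The fit was tested on simulated data. The members and the lists were chosen with earlier results of these data known. Named are all 10 members, in each list the 3 genes with the smallest p above the floor in at least 2 arrays, and the 5 genes most like the member with the smallest p. Of the microRNA loci 1 met this rule, so the other loci of the miR-200 family are named beyond it. Alternatives were the scaling, filters on level and on an interquartile range above 0.5, the variance model, array weights, the probe sets and each pool left out in turn.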

Additional observations from a re-analysis of the deposited data

How the results depend on the processing

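Under the 14 alternatives tried for them, 0 of the 10 genes and 0 of the 177 list genes passed the test. Of all genes 0 passed except with the filter on level and variation, which left 2062 genes and 2 of the 10 members and let 2 genes pass by limma (smallest adjusted p 0.0409). Genes at an unadjusted p under 0.05 by limma numbered 797 higher and 1934 lower in large pools (70.8% lower) as deposited, 834 and 1086 (56.6% lower) after quantile normalization and 1207 and 718 (37.3% lower) after centring each array, which moved the median of all genes to -0.03. Of the 10 genes, those at this limit numbered 2 as deposited, 1 after quantile normalization and 0 after centring, and likewise 0 without large pool 4 or without small pool 7. Leaving out each pool in turn left 0 of the 10 genes, 0 of the 177 list genes and 0 of all genes past the adjusted threshold. The sign turned for *CD24* after centring (0.0028), for *ZEB2* with the mean of its probe sets (0.0207), for *EPCAM* with its other probe set (-0.27, an alternative chosen after seeing the data), and for 3 genes with 1 pool left out; the cause was not tested. With each pool left out in turn, *MUC1* ranged between -0.1501 without large pool 3 and 0.222, *SNAI2* between -0.0539 without large pool 3 and 0.6041, and *CDH2* between -0.0098 without small pool 7 and 0.355. The sign of *CDH1*, *SNAI1*, *ZEB1* and *TWIST1* held under the alternatives that tested them, though *ZEB1* ranged between 0.02 and 0.50 and *TWIST1* between -0.20 and -0.01 with 1 pool left out. The kept probe set of *EPCAM* ranged between 0.56 and 1.78. With a floor of 8 in place of 6.64, 3 members instead of 8 were above it in at least 2 arrays, and with a floor of 5 all 10 were. The median of the mesenchymal list was -0.05 after centring and -0.53 with the filter on level and variation, that of the turnover list 0.82 with that filter and 0.18 without small pool 5, and that of the microRNA loci -0.26 after centring and -0.43 without small pool 6. No paired analysis was possible because the large and the small pools share no replicate numbers. Signals near background limit what can be said of *CDH1*, *SNAI1*, *EPCAM* and *ZEB2*.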
